A study of Mus musculus with 2 samples.

Results

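The semaphorin, plexin, neuropilin, ephrin and Eph receptor genes were described across cell classes of the mouse thymus. They were taken by gene symbol as the class 3 to 7 semaphorins (Sema3 to Sema7), plexins A to D, both neuropilins, the A and B ephrins and the A and B Eph receptors with at least 20 UMIs over both libraries. Of 53 genes that matched by symbol, 51 had enough UMIs, among 32285 annotated genes in all. Epha10 lay just inside the minimum with 20 UMIs, and Sema5b with 16 and Plxnb3 with 9 lay just outside it. The 51 genes comprised 27 ligands (7 class 3 semaphorins, 12 membrane semaphorins, 5 A ephrins and 3 B ephrins) and 24 receptors (2 neuropilins, 8 plexins, 9 EphA and 5 EphB receptors). The data are 2 droplet single-cell RNA libraries (10x Genomics 3' chemistry) of total thymic stroma from E2F_M11 mice, depleted of CD45-positive blood cells on magnetic beads. E2F_M11 carries a CRISPR-Cas9 deletion of 2 E2F binding sites in the proximal promoter of Foxn1, the master regulator of thymic epithelium. Both libraries have this genotype and the wild-type data of the study were not analysed here, so no value below measures an effect of the deletion. The labels used here give no age, sex or treatment, nor whether the libraries came from separate animals.

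Semaphorins are secreted or membrane-bound proteins that steer migrating cells, axons and vessels. Class 3 semaphorins are secreted and mostly act through a neuropilin (Nrp1 or Nrp2), which binds the ligand, paired with an A plexin, which signals. Membrane semaphorins bind plexins directly. Ephrins are membrane-bound too, A ephrins by a lipid anchor and B ephrins by a transmembrane stretch, and they bind Eph receptor tyrosine kinases on a neighbouring cell, with signals passing in both directions. In the thymus, plexin D1 on cortical thymocytes is known for their movement towards the medulla, Sema3a with Nrp1 for thymocyte adhesion and migration, and B ephrins with EphB receptors for the organisation of the epithelium.

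The deposited matrices total 41075328 UMIs over 5110 barcodes (library 1) and 42583831 UMIs over 19163 barcodes (library 2). Filtering left 3588 and 8186 cells, with a median of 8727 and 1874 UMIs, so library 2 was the shallower per cell, and 13 cell barcodes were shared between them. A cell joined a class when the markers of that class led, and 35.5% and 40.7% of cells joined none. Levels are a gene's UMIs scaled to 1000000 UMIs of the class sum (CPM), given for library 1 and then library 2. The classes held 73 and 159 cortical epithelial (cTEC-like) cells, 377 and 285 medullary epithelial (mTEC-like) cells, 62 and 71 tuft-like and 21 and 139 keratinocyte-like epithelial cells, 1337 and 2108 fibroblast-like cells, 104 and 33 mural-like cells, 90 and 66 endothelial-like cells and 143 and 1824 thymocyte-like cells. In the text, elsewhere means the other classes among these 8. Thymocyte-like cells were 3.99% and 22.3% of kept cells, a share that the bead depletion can alter. Membership was least sharp for mTEC-like cells, where 260 of 377 and 183 of 285 cells led by less than 0.1 over the minimum lead of 0.2. Mural-like cells came close to this, with 63 of 104 and 21 of 33 cells. The floor of 3 UMIs ran from 0.224 CPM in fibroblast-like sums to 15.4 CPM in the mural-like sum of library 2, and it covers counting error only.

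Each class carried its own markers in both libraries, yet RNA of other types was present as well. The 10 fibroblast markers summed to 3017 and 401 CPM in endothelial-like cells, to 71.6 and 2446 CPM in keratinocyte-like cells and to 10173 and 7574 CPM in mural-like cells, where the 10 mural markers gave 4328 and 7261 CPM. The median mural-like cell had 8821 and 5236 CPM of fibroblast markers, against 2472 and 4579 CPM of mural markers, and the median keratinocyte-like cell of library 2 had 2181 CPM of fibroblast markers. In the median endothelial-like cell the fibroblast sum was 0 in both libraries. Thymocyte markers in fibroblast-like cells came to 135 and 1055 CPM. In cTEC-like cells thymocyte markers came to 260 and 1787 CPM, mTEC markers to 1091 and 2724 CPM and fibroblast markers to 273 and 1298 CPM. The cTEC markers gave 23966 and 15423 CPM in the same cells. The median cTEC-like cell of library 2 had 2262 CPM of thymocyte markers. The 8 general epithelial markers in thymocyte-like cells came to 985 and 311 CPM. The part of this RNA in the results was tested only by leaving out stromal cells with any thymocyte marker UMI and by leaving out each library.

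The promoters of 6 genes that lead in different classes are shown, as RefSeq windows of GRCm38.p6 from 250 bases before to 50 after a RefSeq gene start. Capitals mark the GC box (GGGCGG, or CCGCCC on the other strand) and the ETS core (CCGGAAG, or CTTCCGG), and matches can overlap. Sema3g (chr14:31217623-31217922, plus strand) and Plxnd1 (chr6:115994956-115995255, minus strand) lead in endothelial-like cells. Sema3c (chr5:17574566-17574865, plus strand) and Epha3 (chr16:63864126-63864425, minus strand) lead in fibroblast-like cells. Plxnb1 (chr9:109095186-109095485, plus strand) leads in cTEC-like cells, and Ephb6 (chr6:41605261-41605560, plus strand) is high in tuft-like and thymocyte-like cells.
Sema3g: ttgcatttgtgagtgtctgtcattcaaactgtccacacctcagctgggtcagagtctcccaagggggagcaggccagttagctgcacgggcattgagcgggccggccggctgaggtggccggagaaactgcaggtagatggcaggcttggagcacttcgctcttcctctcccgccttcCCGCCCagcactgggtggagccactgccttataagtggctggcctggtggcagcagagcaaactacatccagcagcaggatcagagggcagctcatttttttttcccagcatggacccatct
Plxnd1: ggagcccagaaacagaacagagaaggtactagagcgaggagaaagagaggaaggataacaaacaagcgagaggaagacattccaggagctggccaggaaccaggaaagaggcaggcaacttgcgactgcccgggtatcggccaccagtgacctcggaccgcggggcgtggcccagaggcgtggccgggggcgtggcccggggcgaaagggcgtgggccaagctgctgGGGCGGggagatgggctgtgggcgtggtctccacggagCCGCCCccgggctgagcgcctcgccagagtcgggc
Sema3c: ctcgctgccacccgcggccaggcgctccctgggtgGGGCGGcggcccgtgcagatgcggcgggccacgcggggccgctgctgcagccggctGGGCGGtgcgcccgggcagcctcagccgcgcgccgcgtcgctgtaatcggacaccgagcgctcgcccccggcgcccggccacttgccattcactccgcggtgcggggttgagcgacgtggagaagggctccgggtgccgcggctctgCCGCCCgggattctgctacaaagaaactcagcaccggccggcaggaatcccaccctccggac
Epha3: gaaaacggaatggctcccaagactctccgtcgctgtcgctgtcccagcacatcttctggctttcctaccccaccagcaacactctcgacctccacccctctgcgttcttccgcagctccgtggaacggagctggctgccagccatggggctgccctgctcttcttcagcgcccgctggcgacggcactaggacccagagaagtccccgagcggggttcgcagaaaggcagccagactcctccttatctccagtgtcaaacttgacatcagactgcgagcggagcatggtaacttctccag
Plxnb1: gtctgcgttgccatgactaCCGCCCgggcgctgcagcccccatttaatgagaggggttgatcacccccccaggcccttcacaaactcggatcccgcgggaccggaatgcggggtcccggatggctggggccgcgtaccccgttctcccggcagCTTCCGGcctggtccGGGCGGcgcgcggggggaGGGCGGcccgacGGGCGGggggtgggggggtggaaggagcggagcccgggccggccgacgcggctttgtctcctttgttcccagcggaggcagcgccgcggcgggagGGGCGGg
Ephb6: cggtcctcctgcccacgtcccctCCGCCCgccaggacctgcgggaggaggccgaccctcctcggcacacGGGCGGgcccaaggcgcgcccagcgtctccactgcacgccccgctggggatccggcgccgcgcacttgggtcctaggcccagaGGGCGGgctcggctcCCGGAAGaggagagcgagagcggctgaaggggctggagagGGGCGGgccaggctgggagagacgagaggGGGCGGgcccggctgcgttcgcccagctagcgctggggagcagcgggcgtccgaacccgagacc

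A promoter window was found for 45 of the 51 genes. Only 1 window per gene was used, and it need not lie at the outermost start of the gene. The Sema3a window, for example, began at 13396534, inside a gene annotated from 13125414 to 13602565, and the Sema4d window also lay inside its gene. The GC box was in 36 of these (80%), against 35.9% of all 27025 windows of this length and 55.3% of the 14431 windows of genes with at least 20 UMIs. The windows of the guidance genes had a median GC content of 64.7%, against 52.7% and 59% in those sets. It was in 9 of 11 windows of genes leading in endothelial-like cells and in 3 of 6 of those leading in fibroblast-like cells. The ETS core was in 2 windows (4.44%), those of Plxnb1 and Ephb6, against 9.12% and 14.4%. The TATA box (TATAAA or TTTATA) was in 1 window (2.22%), against 14.2% and 9.59%. Of the E2F motifs TTTCCCGC, TTTGGCGC and TTTCGCGC, read on both strands, none was in the 45 windows, and 1.11%, 0.537% and 0.318% of all windows held them. These are matches of letters only.

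Of the 51 genes, 14 had their highest mean level in endothelial-like cells, 12 in keratinocyte-like, 7 in fibroblast-like, 6 in tuft-like, 4 in mTEC-like, 4 in mural-like, 2 in cTEC-like and 2 in thymocyte-like cells. Among all genes with at least 20 UMIs, 10.7% led in endothelial-like, 11.8% in keratinocyte-like, 8.15% in fibroblast-like, 13.7% in tuft-like, 16.2% in mTEC-like, 10% in mural-like, 11% in cTEC-like and 18.4% in thymocyte-like cells. For 32 of the 51, both libraries of the leading class lay above every sum of the other 7 classes, against 41.4% of all genes. Of the 14 endothelial leaders 12 were set apart in this way (Nrp1, Nrp2, Plxna2, Plxnd1, Efna1, Sema3f and Sema3g among them). Neighbouring genes could differ in their leading class. Efna1, Efna3 and Efna4 lie close together on chromosome 3 between 89271733 and 89338028, where Efna1 led in endothelial-like cells and the others in keratinocyte-like cells. Sema3b and Sema3f, near each other on chromosome 9, led in fibroblast-like and endothelial-like cells.

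**Figure D1:**
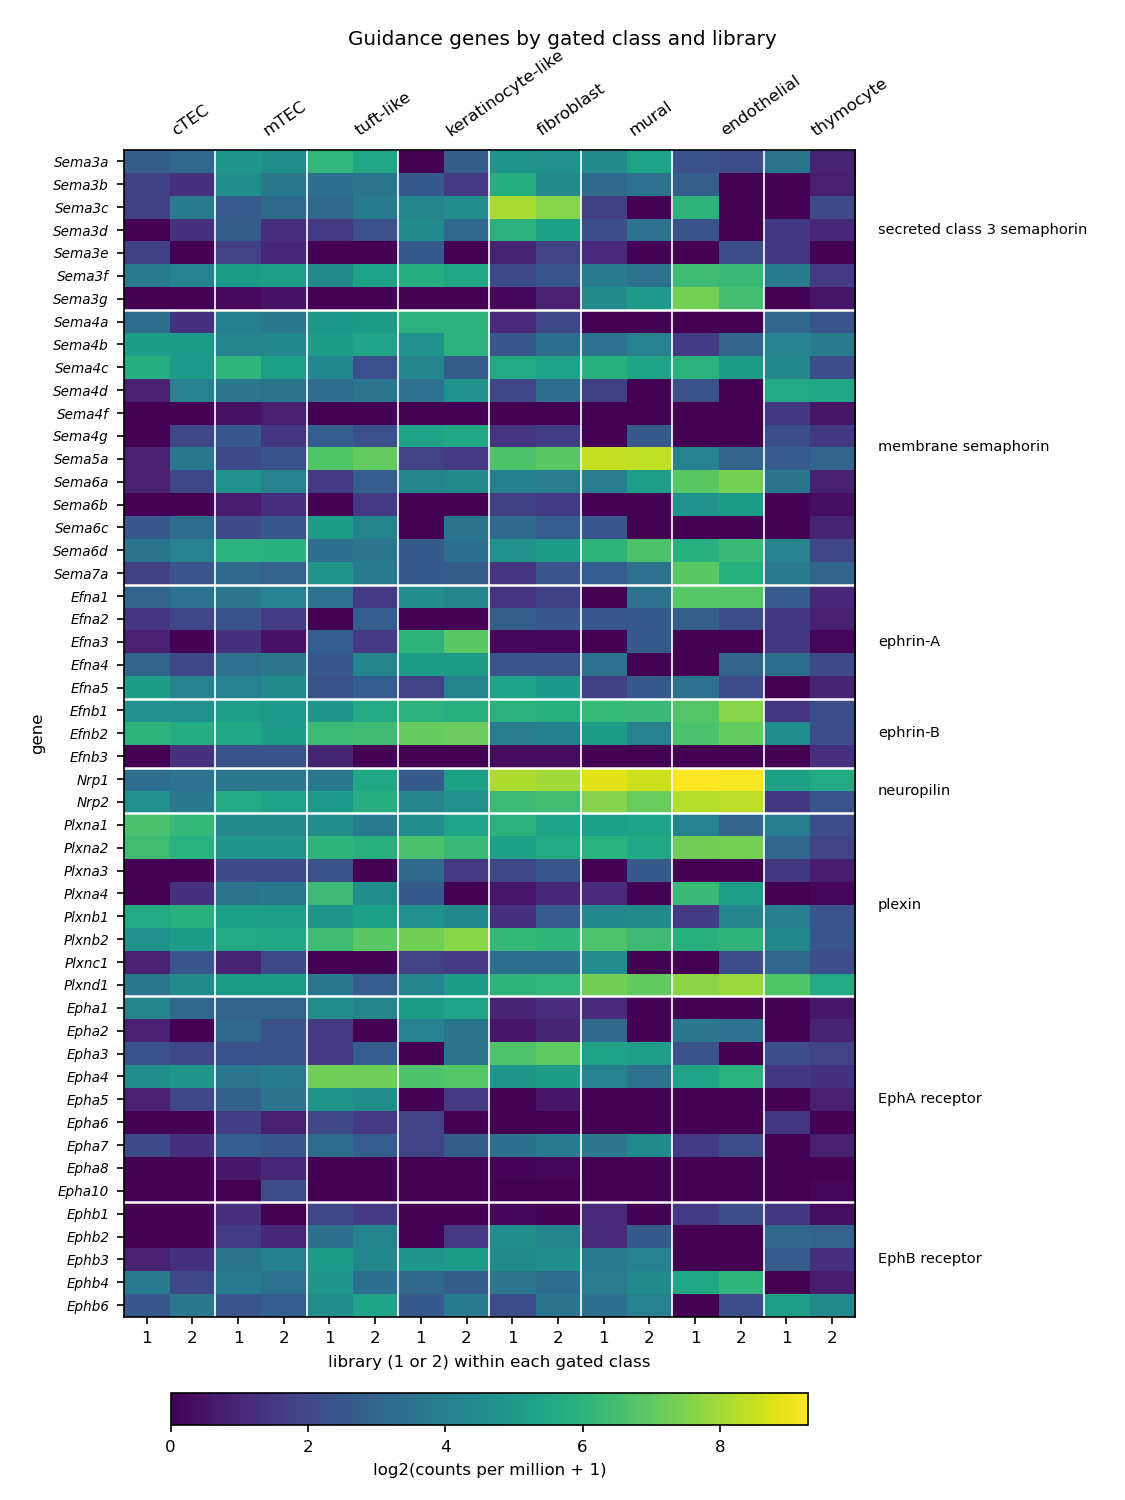
Heat map of log2(CPM + 1) of the 51 guidance genes (rows, grouped by family) in the 8 gated classes, each with library 1 and library 2 as neighbouring columns. Nrp1 is brightest in endothelial-like cells (622 and 565 CPM), Sema5a in mural-like cells (345 and 333 CPM) and Sema3c in fibroblast-like cells (274 and 194 CPM).

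Among the secreted class 3 semaphorins, 3 with many UMIs led in fibroblast-like cells. Sema3c, a ligand of both neuropilins known for cardiac outflow and vessel patterning, had 274 and 194 CPM there, 5.33 and 8.28 CPM in mTEC-like and 2.42 and 13.5 CPM in cTEC-like cells. The fibroblast-like sums lay above all other classes. In endothelial-like cells Sema3c had 63.4 CPM in library 1 and 0 of 66 cells in library 2, and library 1 was also the one with more fibroblast marker RNA in that class. Sema3d had 60.8 and 37.8 CPM in fibroblast-like cells and at most 20.5 CPM elsewhere. Sema3b, another neuropilin ligand, had 54.2 and 20.1 CPM there and 23.9 and 12.6 CPM in mTEC-like cells, so these classes overlapped.

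Sema3g, a semaphorin of the vessel wall, was found in endothelial-like cells at 163 and 92.3 CPM, in mural-like cells at 20 and 30.7 CPM, and at no more than 0.821 CPM elsewhere. With each cell thinned to 1000 UMIs, which every kept cell had, a Sema3g UMI was seen in 13.3% of library 1's endothelial-like cells (exact 95% interval 7.08 to 22.1) and in 4.55% of library 2 (0.947 to 12.7), and in 0 of 1337 and 0 of 2108 fibroblast-like cells. Without thinning the endothelial shares were 30% and 19.7%, at median depths of 4955 and 3198.5 UMIs. Sema3f, a ligand of Nrp2, also led in endothelial-like cells with 83.3 and 74.6 CPM. It had 53.7 and 43.3 CPM in keratinocyte-like, 32.5 and 34.6 CPM in mTEC-like and 3.21 and 4.58 CPM in fibroblast-like cells. Sema3a, the classical ligand of Nrp1, was highest in tuft-like cells (69.9 and 46.1 CPM), and above all other classes, followed by mural-like (20 and 41 CPM), mTEC-like (27.7 and 23 CPM) and fibroblast-like cells (26.8 and 24.6 CPM), which overlapped. Sema3e, the direct ligand of plexin D1, had at most 5.11 CPM in any sum.

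The membrane semaphorins were spread over more classes. Sema5a, which carries thrombospondin repeats, had 345 and 333 CPM in mural-like, 109 and 132 CPM in tuft-like and 102 and 120 CPM in fibroblast-like cells, and at most 15.9 CPM in the other classes. Mural-like cells stood apart, while tuft-like and fibroblast-like cells overlapped. Sema6a had 119 and 160 CPM in endothelial-like cells and no more than 35.9 CPM elsewhere. Sema6b had 25.8 and 32 CPM in endothelial-like cells and no more than 2.39 CPM elsewhere. Sema7a, which is anchored by a lipid and binds integrins and plexin C1, had 119 and 56.8 CPM in endothelial-like cells and at most 28.2 CPM in other classes. Sema6c was highest in tuft-like cells (33 and 17.3 CPM). Sema6d, a ligand of plexin A1, had 64.6 and 102 CPM in mural-like, 57.5 and 78.1 CPM in endothelial-like and 59.3 and 57.9 CPM in mTEC-like cells, which overlapped.

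The class 4 semaphorins differed in where they were found. Sema4d, known as CD100 on T cells and a ligand of plexin B1 and CD72, had 47.7 and 47 CPM in thymocyte-like cells. The next highest sum was 26.4 CPM in keratinocyte-like cells of library 2, so thymocyte-like cells did not overlap with any other class. At 1000 UMIs per cell, a Sema4d UMI was in 6.99% of library 1's thymocyte-like cells (exact 95% interval 3.40 to 12.5) and in 4.55% of library 2 (3.64 to 5.61), against 0.374% and 1.76% of fibroblast-like cells. The unthinned thymocyte shares were 15.4% in both libraries, at median depths of 2416 and 2067.5 UMIs, against 2.84% and 3.46% of fibroblast-like cells at 9381 and 2204.5 UMIs. Sema4a had 61.4 and 62.2 CPM in keratinocyte-like and 30.1 and 32.6 CPM in tuft-like cells, and no UMI in mural-like or endothelial-like cells. Sema4g had 40.9 and 45.2 CPM in keratinocyte-like cells and at most 5.83 CPM elsewhere. Sema4b had its highest values in epithelium, from 16.7 to 62.2 CPM over the 4 epithelial classes, and from 1.98 to 9.5 CPM in fibroblast-like and endothelial-like cells. Sema4f had at most 1.83 CPM in any sum. Sema4c, a plexin B2 ligand, was in most stromal classes, and the classes overlapped: its level ran from 31.5 to 67.3 CPM over cTEC-like, mTEC-like, fibroblast-like, mural-like and endothelial-like sums.

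Of the B ephrins, Efnb2, a ligand of several EphB receptors and a known arterial marker, had 136 and 143 CPM in keratinocyte-like and 99.1 and 135 CPM in endothelial-like cells. It had 64.4 and 52.5 CPM in cTEC-like, 44.8 and 33.8 CPM in mTEC-like and 14.3 and 15.3 CPM in fibroblast-like cells. Keratinocyte-like cells lay just above endothelial-like cells, and fibroblast-like cells lay below all epithelial classes. Efnb1 was found in every stromal class, from 24 CPM in cTEC-like cells of library 2 to 192 CPM in endothelial-like cells of library 2, and in thymocyte-like cells at 1.83 and 3.75 CPM. Efnb3 reached at most 3.96 CPM. Of the A ephrins, Efna1 had 117 and 114 CPM in endothelial-like cells and at most 23 CPM elsewhere. Efna3 had 63.9 and 121 CPM in keratinocyte-like cells and at most 5.83 CPM elsewhere. Efna4 had 33.2 and 32 CPM in keratinocyte-like cells and at most 17.3 CPM elsewhere, and Efna2 had at most 6.05 CPM in any sum. Efna5 was highest in fibroblast-like cells (40.2 and 30.1 CPM) and overlapped with cTEC-like cells (33 and 16.5 CPM).

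Among the receptors, both neuropilins led in endothelial-like cells and were lower in cTEC-like and mTEC-like cells. Nrp1, the co-receptor of Sema3a and of vascular endothelial growth factor, had 622 and 565 CPM in endothelial-like, 479 and 379 CPM in mural-like and 281 and 257 CPM in fibroblast-like cells. These 3 classes did not overlap, and they lay above all others: thymocyte-like cells had 36.7 and 50.2 CPM, mTEC-like cells 12 and 12.2 CPM and cTEC-like cells 8.86 and 10.5 CPM. At 1000 UMIs per cell, an Nrp1 UMI was in 47.8% of library 1's endothelial-like cells (exact 95% interval 37.1 to 58.6) and in 39.4% of library 2 (27.6 to 52.2), against 1.06% and 2.46% of mTEC-like cells. Unthinned, the shares were 82.2% and 74.2% against 12.2% and 8.07%, with mTEC-like medians of 13050 and 6272 UMIs. Nrp2, the co-receptor of Sema3f and of lymphatic growth factors, had 305 and 330 CPM in endothelial-like, 189 and 138 CPM in mural-like and 79.7 and 85.3 CPM in fibroblast-like cells. It was higher in mTEC-like (47.8 and 41 CPM) than in cTEC-like cells (24.2 and 12 CPM), and lowest in thymocyte-like cells (1.83 and 4.14 CPM).

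The A and D plexins differed in the classes where they were high. Plxnd1, the receptor named above for thymocyte movement and also known in vessels, had 202 and 234 CPM in endothelial-like and 156 and 128 CPM in mural-like cells. Thymocyte-like cells had 108 and 49.1 CPM and fibroblast-like cells 64.5 and 70.7 CPM, so these classes overlapped. At 1000 UMIs per cell, a Plxnd1 UMI was in 11.2% of library 1's thymocyte-like cells (exact 95% interval 6.53 to 17.5) and in 7.18% of library 2 (6.04 to 8.46), and in 0 of 62 and 0 of 71 tuft-like cells. Unthinned, the thymocyte shares were 28% and 16.8% and the tuft-like shares 14.5% and 4.23%, with tuft-like medians of 15929 and 2965 UMIs. Plxna1, a signalling partner of neuropilins and a receptor of Sema6d, had 96.6 and 72 CPM in cTEC-like cells, above every other sum, the next being 61.8 CPM in fibroblast-like cells. Plxna2 had 153 and 163 CPM in endothelial-like cells and 85.3 and 60 CPM in the cTEC-like class, and 27.8 and 27.7 CPM in mTEC-like cells. Plxna4 had 75.3 and 35.5 CPM in endothelial-like and 81.6 and 23 CPM in tuft-like cells, and these overlapped.

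The B plexins, receptors of class 4 semaphorins, had their highest levels in epithelium. Plxnb1, the Sema4d receptor, had 48.3 and 58.5 CPM in cTEC-like and 37.3 and 34.6 CPM in mTEC-like cells, and 1.57 and 5.28 CPM in fibroblast-like cells. Plxnb2 was present in all stromal classes, from 25.8 CPM in cTEC-like cells of library 1 to 198 CPM in keratinocyte-like cells of library 2. Plxnc1 and Plxna3 stayed at or under 21.1 CPM and 7.67 CPM in every sum.

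Among the EphA receptors, which bind A ephrins, Epha3 had 104 and 126 CPM in fibroblast-like and 38.7 and 35.9 CPM in mural-like cells and at most 11.3 CPM elsewhere. Epha4, the EphA receptor that also binds B ephrins, had 151 and 150 CPM in tuft-like and 102 and 113 CPM in keratinocyte-like cells. Endothelial-like cells followed with 41.6 and 60.4 CPM, and mTEC-like cells had 11.5 and 13.7 CPM. Epha1 was an epithelial receptor, with 33.2 and 41.5 CPM in keratinocyte-like, 23.3 and 17.3 CPM in tuft-like and 0.896 and 1.29 CPM in fibroblast-like cells. Epha5 was highest in tuft-like cells (27.2 and 23 CPM), with 6.18 and 10.8 CPM in mTEC-like cells and 0 to 3 CPM in all other classes. Epha2 had from 0 to 15.3 CPM and Epha7 from 0 to 20.5 CPM over all sums, without a class that stood apart. Epha10 had 0 CPM in mTEC-like cells of library 1 and 3.6 CPM in library 2, and Epha6 and Epha8 reached at most 2.91 and 1.08 CPM.

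Among the EphB receptors, Ephb4, the receptor of Efnb2 known from veins, had 45.6 and 67.5 CPM in endothelial-like cells and at most 28.2 CPM elsewhere. Of the 90 endothelial-like cells of library 1, 38 had an Efnb2 UMI, 21 an Ephb4 UMI and 5 both. Of the 66 of library 2, 21 had Efnb2, 18 Ephb4 and 7 both. These cell numbers depend on the depth of each cell. Ephb1 had at most 3.55 CPM in any sum. Ephb6, a receptor without kinase activity known in T cells, had 34.9 and 20.8 CPM in thymocyte-like and 23.3 and 40.3 CPM in tuft-like cells, and these overlapped. The other classes had from 0 to 15.4 CPM. Ephb2 had 23.9 and 16.8 CPM in fibroblast-like, 9.71 and 17.3 CPM in tuft-like and 7.34 and 6.6 CPM in thymocyte-like cells, and no UMI in cTEC-like or endothelial-like cells. Ephb3 had no UMI in endothelial-like cells and 19.9 and 23.3 CPM in fibroblast-like cells.

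**Figure D2:**
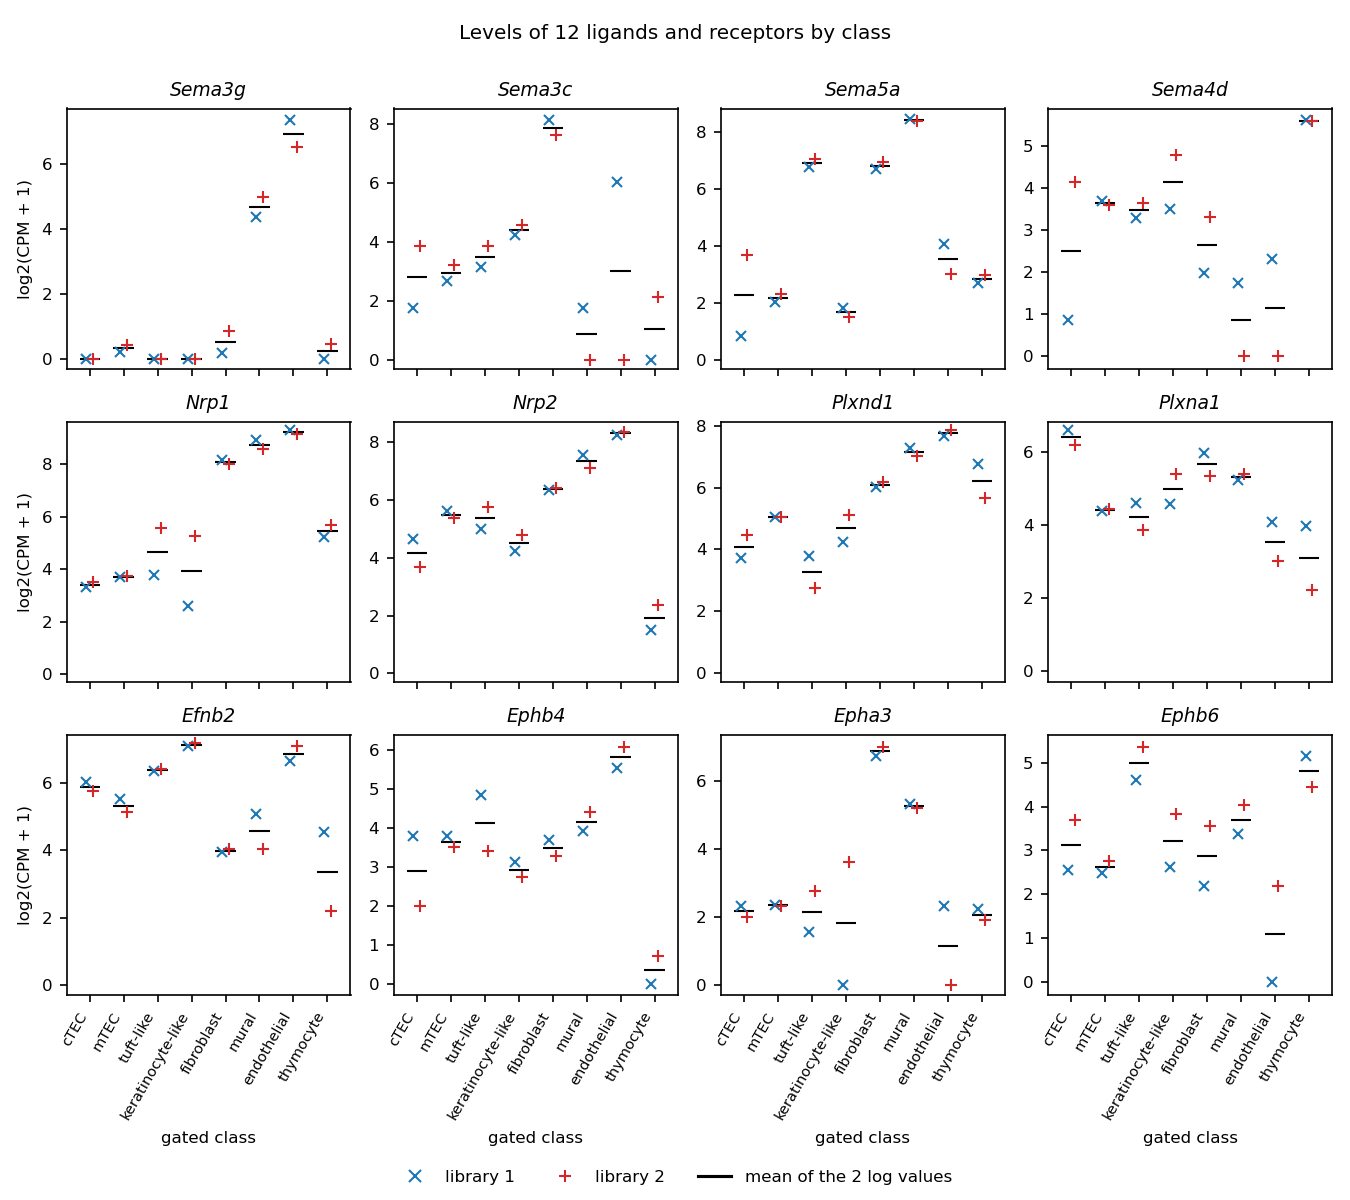
Levels of 12 guidance genes on a log2(CPM + 1) axis in the 8 gated classes, with a cross for library 1, a plus for library 2 and a bar for the mean of the 2 log values. Nrp1, Nrp2, Plxnd1, Ephb4 and Sema3g are highest in endothelial-like cells, Plxna1 in cTEC-like and Sema4d in thymocyte-like cells, while the Sema3c values of endothelial-like cells lie far apart (63.4 and 0 CPM).

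The next question was which guidance genes the epithelium carries against the mesenchyme around it. In the contrasts, epithelium means cTEC-like and mTEC-like cells only, without the tuft-like and keratinocyte-like classes. In the contrast of the mean of cTEC-like and mTEC-like against fibroblast-like cells, 21 of 39 genes tested were called, where 37.6% of all 12016 genes were. A call needed an adjusted p at or under 0.05 by edgeR's quasi-likelihood test with Benjamini-Hochberg adjustment over all genes, with the library as a block. The 12 genes not tested for low counts were Epha2, Epha6, Epha7, Epha8, Epha10, Ephb1, Efna2, Efnb3, Sema3e, Sema4f, Plxna3 and Plxnc1. The 8 genes higher in epithelium (18.1% of all genes) were Epha5, Plxnb1, Epha1, Sema3f, Efna1, Sema4a, Sema4b and Efnb2, and the 13 lower ones (19.5% of all genes) included both neuropilins, Sema3b, Sema3c, Sema3d, Sema5a, Epha3 and Ephb2. The median log2 fold was -0.36 over the 39 genes and 0.03 over all genes. By family, 3 of 6 class 3 semaphorins and 2 of 2 neuropilins were lower, and of 4 EphA receptors 2 were higher and 2 lower.

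Plxnb1 was 3.70 ± 0.49 (SE) log2 higher in epithelium, with 4.14 in library 1 alone and 2.89 in library 2 alone (edgeR adjusted p = 7.34e-05). Epha1 was 2.98 ± 0.53 higher (2.74 and 1.92, adjusted p = 0.000762), Sema3f 2.45 ± 0.42 (2.37 and 2.18, adjusted p = 0.000447) and Efnb2 1.61 ± 0.34 (1.74 and 1.39, adjusted p = 0.00228). Epha5 was 3.97 ± 1.06 higher, from 69 UMIs against 4 (adjusted p = 0.0118). Sema4a was 2.06 ± 0.52 higher, but its library values of 2.59 and 0.49 lay far apart (adjusted p = 0.0088). On the fibroblast side, Nrp1 was lower in epithelium, at a log2 fold of -4.72 ± 0.43 (-4.79 and -4.45, adjusted p = 1.21e-05) and Sema3c likewise at -5.21 ± 0.67 (-6.09 and -4.13, adjusted p = 0.000225). Epha3 had -4.94 ± 0.37 (-4.56 and -4.94) and Sema5a -4.79 ± 0.37 (-5.51 and -4.00), both with an adjusted p of 3.33e-06. Smaller differences were called for Plxnd1 (-1.66 ± 0.27, adjusted p = 0.000339), Nrp2 (-1.57 ± 0.27, adjusted p = 0.000533), Efnb1 (-1.13 ± 0.24, adjusted p = 0.00245), Plxnb2 (-0.996 ± 0.27, adjusted p = 0.0104) and Epha4 (-0.86 ± 0.20, adjusted p = 0.00402). Tuft-like and keratinocyte-like cells, outside this contrast, both had higher mean levels of Epha4 and Plxnb2 than fibroblast-like cells. Sema5a levels of tuft-like and fibroblast-like cells overlapped. Ephb2 was called lower from 15 UMIs against 463, with cTEC-like sums at 0, so its fitted fold of -6.23 depends on the prior count. Sema3b was called lower with 4 UMIs in cTEC-like and 174 UMIs in mTEC-like cells. Its levels in mTEC-like and fibroblast-like cells overlapped.

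Sema3a was not called, at -1.10 ± 0.46 (adjusted p = 0.0738), nor were Sema4d (0.68 ± 0.54, adjusted p = 0.351), Ephb4 (-0.13 ± 0.40, adjusted p = 0.846) and Ephb6 (-0.09 ± 0.40, adjusted p = 0.89), and for Ephb4 and Ephb6 the libraries differed in sign. With cells thinned to 1000 UMIs, 8 of the 21 calls were left, and without stromal cells bearing a thymocyte marker UMI 8 of 9 calls were among the 21. Both settings hold fewer counts.

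The contrast of cTEC-like against mTEC-like cells asked whether cortical and medullary epithelium carry different guidance genes. Of the 39 genes 9 were called, against 13.4% of all genes. Plxna1, Plxna2 and Epha4, all receptors, were higher in cTEC-like cells (6.2% of all genes), and Nrp2, Sema6d, Sema3b, Ephb3, Sema6a and Plxna4 were lower (7.25% of all genes). The median log2 fold was -0.94 over the 39 genes and -0.07 over all genes. Plxna1 was 1.99 ± 0.37 log2 higher (2.22 and 1.66, edgeR adjusted p = 0.00434), Plxna2 1.32 ± 0.27 (1.56 and 0.98, adjusted p = 0.00671) and Epha4 0.97 ± 0.27 (0.95 and 0.91, adjusted p = 0.0328). The Epha4 call was kept in 6 of 11 alternative settings, with an adjusted p of up to 0.801 by edgeR in thinned cells. Sema6d had 11.3 and 16.5 CPM in the cortical class and 59.3 and 57.9 CPM in the medullary one, a log2 fold of -2.19 ± 0.45 (-2.35 and -1.88, adjusted p = 0.00761). Sema3b differed by -3.27 ± 0.68 (-2.99 and -2.64, adjusted p = 0.00794) and Nrp2 by -1.29 ± 0.37 (-0.99 and -1.82, adjusted p = 0.0359). Ephb3, Sema6a and Plxna4 were called lower from only 2, 3 and 1 UMIs in cTEC-like cells against 108, 194 and 98 UMIs in mTEC-like cells.

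Sema3a (-2.07 ± 0.66, adjusted p = 0.0534), Plxnd1 (-1.09 ± 0.38, adjusted p = 0.0739), Plxnb2 (-0.77 ± 0.35, adjusted p = 0.172), Efnb2 (0.51 ± 0.39, adjusted p = 0.428), Efnb1 (-0.49 ± 0.32, adjusted p = 0.354), Nrp1 (-0.41 ± 0.64, adjusted p = 0.733), Ephb4 (-0.52 ± 0.55, adjusted p = 0.593) and Ephb6 (0.48 ± 0.57, adjusted p = 0.636) were not called between cTEC-like and mTEC-like cells. Sema4d was not called either (-0.94 ± 0.72, adjusted p = 0.428), with library values of -3.05 and 0.43 that differ in sign. With cells thinned to 1000 UMIs none of the 9 calls was left by edgeR's test (2 of the genes had an unadjusted p under 0.05) and the Plxna2 value turned to -0.14 (edgeR adjusted p = 0.969). With Leiden clusters in place of the gate 10 genes were called, 5 of them among the 9.

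Genes raised in endothelium were sought in the contrast of endothelial-like cells against the mean of epithelium and fibroblast-like cells. Tuft-like, keratinocyte-like and mural-like cells had no part in this contrast, so a gene called higher need not be highest in endothelial-like cells. Of the 39 genes 18 were called, against 15.9% of all genes. The 15 higher ones (9.65% of all genes) were 8 ligands (Sema3f, Sema3g, Sema6a, Sema6b, Sema7a, Efna1, Efnb1 and Efnb2) and 7 receptors (Nrp1, Nrp2, Plxna2, Plxna4, Plxnd1, Ephb4 and Epha4), and the 3 lower ones (6.29% of all genes) were Plxna1, Epha3 and Ephb3. The Epha4 call was kept in 7 of 11 alternative settings, with an adjusted p of up to 0.779 by edgeR. Epha4 had higher mean levels in tuft-like and keratinocyte-like cells than in endothelial-like cells. Efnb2 had a higher mean level in keratinocyte-like than in endothelial-like cells (139 against 117 CPM), but their closest library values nearly met. Plxna4 overlapped with tuft-like cells. The median log2 fold was -0.68 over the 39 genes and -0.22 over all genes. Efna1 was 4.51 ± 0.45 log2 higher (4.49 and 4.01, edgeR adjusted p = 9.9e-06), Sema7a 4.43 ± 0.42 (4.96 and 3.22, adjusted p = 6.41e-06) and Sema6a 3.78 ± 0.47 (3.46 and 3.76, adjusted p = 0.000105). Nrp1 was 3.35 ± 0.38 higher (3.37 and 3.22, adjusted p = 7.85e-05), Nrp2 2.58 ± 0.25 (2.42 and 2.77, adjusted p = 9.72e-06) and Plxnd1 2.36 ± 0.26 (2.36 and 2.31, adjusted p = 2.24e-05). For these 3 receptors the 2 libraries gave close values.

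Both sides of the Efnb2 and Ephb4 pair were higher in endothelial-like cells, Ephb4 by 2.34 ± 0.42 log2 (1.71 and 2.99, edgeR adjusted p = 0.00156) and Efnb2 by 2.00 ± 0.33 (1.69 and 2.25, adjusted p = 0.00087). Efnb1 was 1.72 ± 0.25 higher (1.25 and 2.15, adjusted p = 0.000279), Sema3f 2.98 ± 0.38 (3.07 and 2.60, adjusted p = 9.78e-05) and Plxna4 5.16 ± 0.59 (5.22 and 3.41, adjusted p = 3.66e-05). Sema3g and Sema6b were called as well (adjusted p = 3.12e-06 and 0.00162), but cTEC-like sums at 0 make their fitted folds of 9.01 and 5.20 depend on the prior count. The Plxna4 fold also rests on few counts, with 1 UMI in cTEC-like and 16 UMIs in fibroblast-like cells. Plxna1 was lower at -2.02 ± 0.48 (-1.78 and -2.45, adjusted p = 0.0103). Plxnb2 (0.11 ± 0.32, adjusted p = 0.866), Ephb6 (-2.34 ± 1.08, adjusted p = 0.167) and Sema3a (-2.37 ± 0.91, adjusted p = 0.0986) were not called, nor was Sema4d (-1.47 ± 1.18, adjusted p = 0.447), whose libraries differed in sign. With cells thinned to 1000 UMIs 8 of the 18 calls were left, and without stromal cells bearing a thymocyte marker UMI 9 were.

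**Figure D3:**
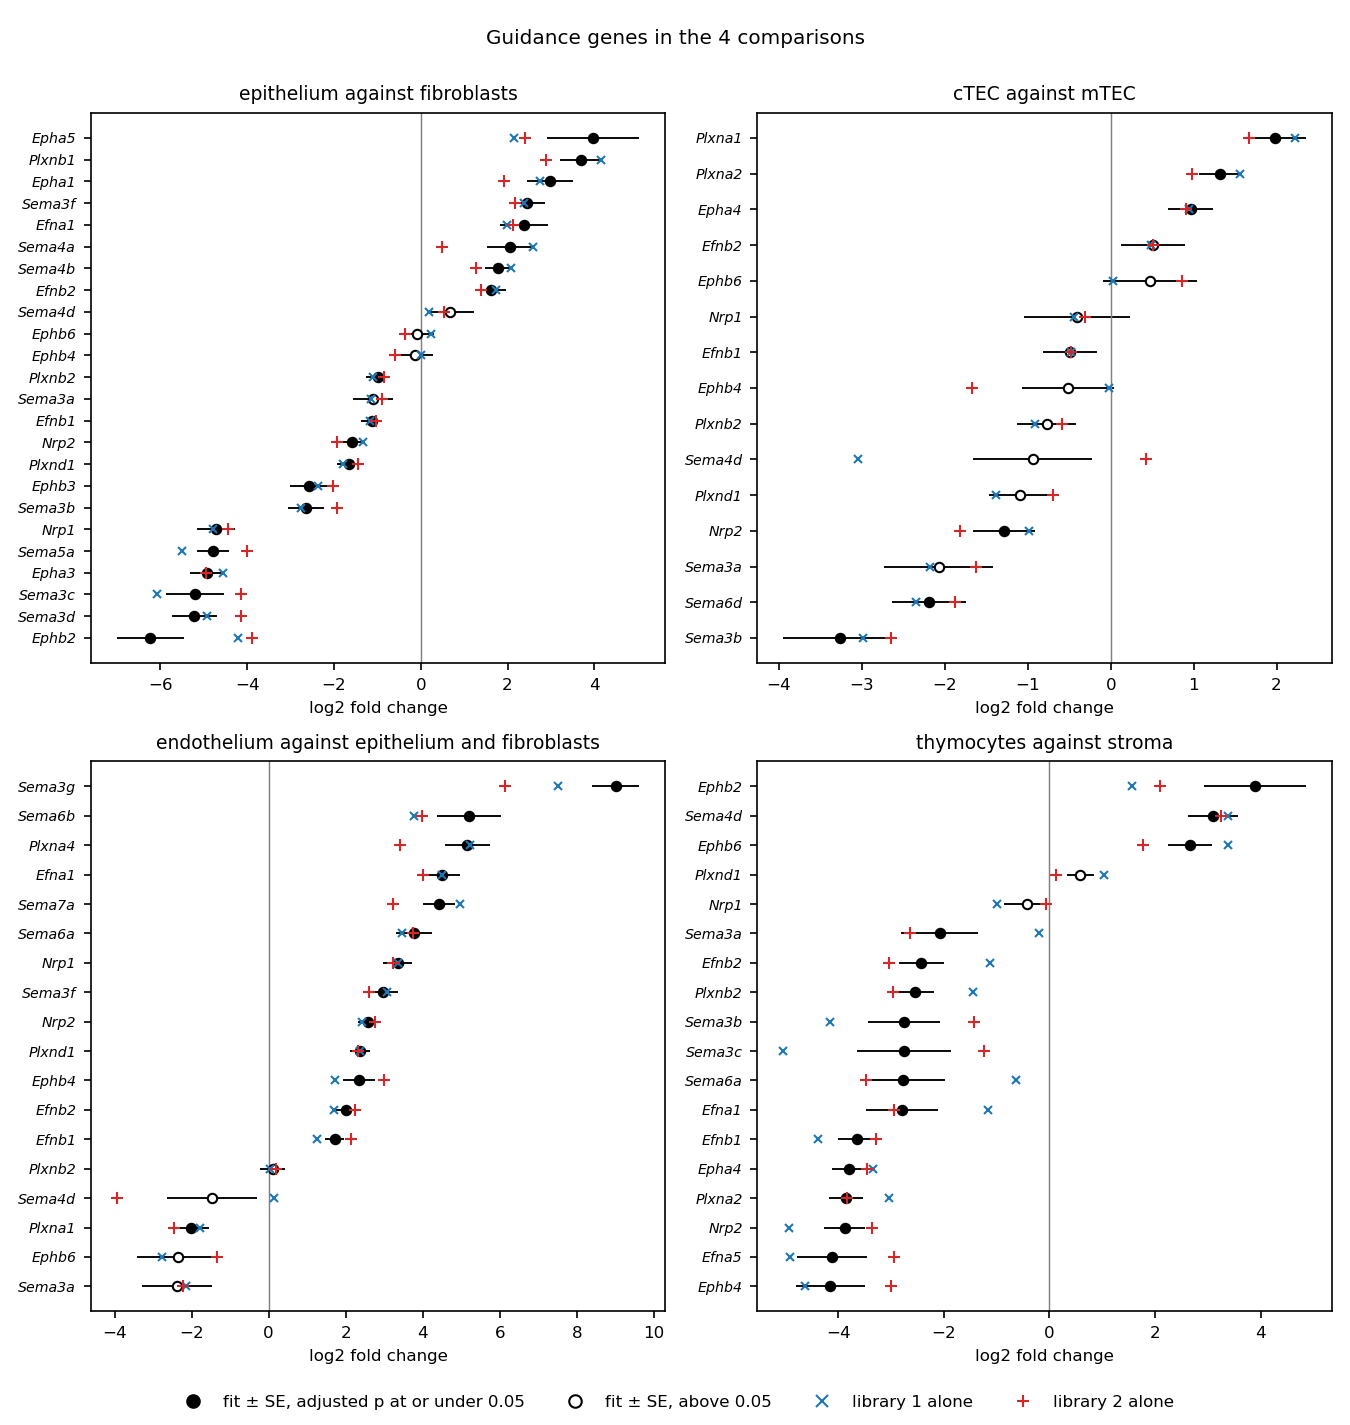
Log2 fold changes of the guidance genes named in each of the 4 comparisons, with a circle and SE bar for the fit (filled at an adjusted p at or under 0.05, open above), a cross for library 1 alone and a plus for library 2 alone. Library values are close for Nrp1, Nrp2 and Plxnd1 in endothelial-like cells, and lie apart for many genes of the thymocyte panel, such as Sema6a (-0.63 and -3.47).

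Thymocyte-like cells were set against the mean of cTEC-like, mTEC-like, fibroblast-like and endothelial-like cells, and most guidance genes called were lower in them. Of the 39 genes 21 were called, against 44.2% of all genes, 3 higher (24.7% of all genes) and 18 lower (19.5% of all genes). The median log2 fold was -1.32 over the 39 genes and 0.06 over all genes. The higher ones were Sema4d, Ephb6 and Ephb2. Sema4d was 3.10 ± 0.47 log2 higher (3.38 and 3.26, edgeR adjusted p = 0.000188) and Ephb6 2.66 ± 0.42 (3.38 and 1.77, adjusted p = 0.000237). Ephb2 was called (adjusted p = 0.00681) with a fitted fold of 3.89 that depends on the prior count, yet its level of 7.34 and 6.6 CPM in thymocyte-like cells was below that of fibroblast-like cells. The contrast averages log values, and sums of 0 in cTEC-like and endothelial-like cells lower the stromal mean. Low sums do so too, and Sema4d and Ephb6 had only 2 and 1 UMIs in endothelial-like cells.

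Plxnd1, which had 108 and 49.1 CPM in thymocyte-like cells, was not called (0.59 ± 0.25, library values 1.04 and 0.12, edgeR adjusted p = 0.0744), nor was Nrp1 (-0.43 ± 0.42, adjusted p = 0.443). Among the lower genes, Plxna2 differed by -3.85 ± 0.31 (-3.04 and -3.83, adjusted p = 3.14e-06), Epha4 by -3.80 ± 0.32 (-3.35 and -3.46, adjusted p = 3.56e-06), Nrp2 by -3.88 ± 0.39 (-4.93 and -3.36, adjusted p = 8.62e-06) and Efnb1 by -3.65 ± 0.35 (-4.38 and -3.28, adjusted p = 7.1e-06). Efna5 (-4.12 ± 0.66, adjusted p = 0.000284) and Ephb4 (-4.15 ± 0.65, adjusted p = 0.000226) rested on 7 and 5 UMIs in thymocyte-like cells. Efnb2 differed by -2.43 ± 0.42 (-1.13 and -3.04, adjusted p = 0.000515) and Plxnb2 by -2.55 ± 0.37 (-1.44 and -2.97, adjusted p = 0.000114), with the smaller difference in library 1. Library 1 was also the one with more epithelial marker RNA in thymocyte-like cells (985 against 311 CPM), and its part in these values was not tested.

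Sema3a was called lower (-2.08 ± 0.72, edgeR adjusted p = 0.0321), but library 1 alone gave -0.19 and library 2 alone -2.65, and without stromal cells bearing a thymocyte marker UMI its value turned to 0.94 (adjusted p = 0.761). Sema3c (-5.04 and -1.24), Sema3b (-4.15 and -1.43), Sema6a (-0.63 and -3.47) and Efna1 (-1.16 and -2.93) also had library values far apart, with fitted values of -2.76 ± 0.89, -2.75 ± 0.68, -2.77 ± 0.79 and -2.79 ± 0.69. With cells thinned to 1000 UMIs 5 of the 21 calls were left, and without stromal cells bearing a thymocyte marker UMI 8 were.

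Within the mTEC-like class, 237 cells over both libraries had Aire raised but not Ccl21a. They were set beside 302 cells over both with Ccl21a raised but not Aire. Aire is the regulator of self-antigen display, and Ccl21a is a chemokine that draws thymocytes into the medulla. Cells with both raised were in neither group, and the groups are called Aire raised and Ccl21a raised for short. No test was made, as these groups were formed by these markers within a class. Of 39 guidance genes with at least 20 UMIs in both groups together, 13 were higher without overlap where Aire was raised (34.8% of all genes were) and 18 where Ccl21a was raised (33.4% of all genes were). The first count is near the share of all genes. With Ccl21a raised, Plxnb1 had 71.5 and 67.4 CPM against 17.4 and 19.7 CPM, Sema3f 61.5 and 63.1 CPM against 15.4 and 20.4 CPM, and Sema6a 50 and 40.1 CPM against 13 and 6.8 CPM. With Aire raised, Nrp2 had 69.7 and 29.9 CPM against 9.01 and 12.9 CPM, Sema3b 36.5 and 21.1 CPM against 5 and 1.43 CPM, and Plxna4 18.8 and 17.7 CPM against 1.5 and 1.43 CPM. The Aire-raised cells were deeper, with median UMIs of 20363.5 and 9517 against 8692 and 5012.

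**Figure D4:**
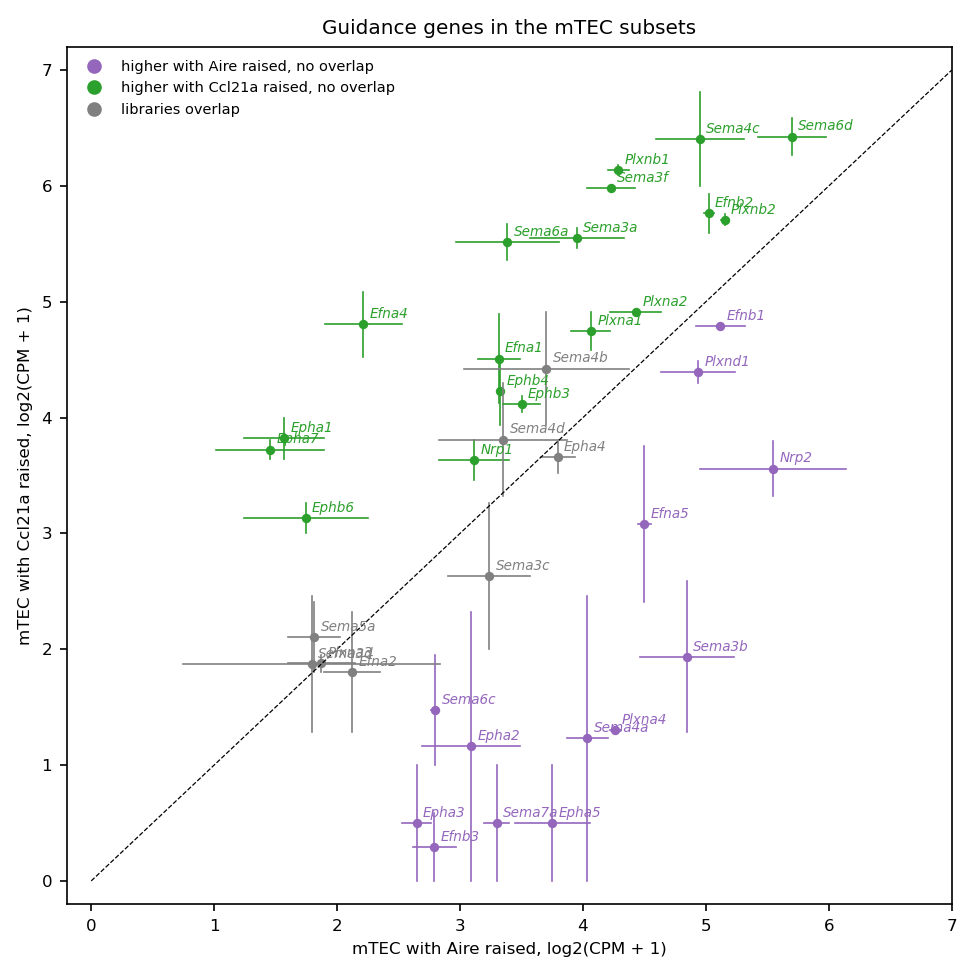
Levels of 39 guidance genes as log2(CPM + 1) in mTEC-like cells. The horizontal axis shows cells with Aire but not Ccl21a raised, and the vertical axis those with Ccl21a but not Aire raised. Each point is the mean of the log values of 2 libraries and each line runs from one library to the other. The 13 purple genes, such as Nrp2 and Sema3b, lie below the dashed line of equality and the 18 green genes, such as Plxnb1 and Sema3f, above it.

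Other guidance genes were read from the same fit. Of 21 other guidance ligands and receptors (slits and their Robo receptors, netrins and their receptors, Rgm and Flrt genes) 16 were tested. Epithelium against fibroblast-like cells gave 2 higher and 7 lower (18.1% and 19.5% of all genes were), cTEC-like against mTEC-like 1 and 2 (6.2% and 7.25%), endothelial-like cells 1 and 3 (9.65% and 6.29%), and thymocyte-like cells 0 and 9 (24.7% and 19.5%). The repulsive ligand Slit2 had 74.4 and 69.6 CPM in fibroblast-like and 1.89 and 1.80 CPM in mTEC-like cells, and was lower in epithelium, at a log2 fold of -4.57 ± 0.38 (edgeR adjusted p = 4.17e-06). Robo4, the endothelial Robo, had 117 and 114 CPM in endothelial-like cells and at most 1.44 CPM in the other classes of that contrast (adjusted p = 1.54e-05). Robo1 (-1.37 ± 0.31, adjusted p = 0.0118) and Robo2 (-1.84 ± 0.41, adjusted p = 0.0114) were lower and the netrin receptor Unc5b (2.76 ± 0.58, adjusted p = 0.00864) higher on the cTEC-like side of that contrast with mTEC-like cells.

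Of 42 signalling partners of plexins and Eph receptors 35 were tested. The numbers higher and lower were 5 and 13 in epithelium against fibroblast-like cells, 0 and 3 in cTEC-like against mTEC-like, 7 and 2 in endothelial-like and 4 and 11 in thymocyte-like cells. Of all genes, 18.1% and 19.5%, 6.2% and 7.25%, 9.65% and 6.29%, and 24.7% and 19.5% were higher and lower. In either direction, 51.4%, 8.57%, 25.7% and 42.9% of partners were called, beside 37.6%, 13.4%, 15.9% and 44.2% of all genes. The share of partners was higher for epithelium against fibroblast-like cells and for endothelial-like cells. It was lower between cTEC-like and mTEC-like cells, and close to that of all genes in thymocyte-like cells, where most partners called were lower. Fyn, a Src-family kinase downstream of plexin A and ephrins, was lower in epithelium, at a log2 fold of -3.98 ± 0.43 (edgeR adjusted p = 2.86e-05). Rnd1, a small GTPase that binds plexins, was 3.79 ± 0.45 higher in endothelial-like cells (adjusted p = 5.34e-05). Pak1, a kinase downstream of Rac, was called higher in thymocyte-like cells (edgeR adjusted p = 0.000404), but it had no UMI in endothelial-like cells, so its fitted fold of 3.17 depends on the prior count. Its levels were 36.7 and 18.6 CPM in thymocyte-like and 30.1 and 22.7 CPM in mTEC-like cells.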

How the data were processed

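The values deposited by the authors are unnormalised UMI counts, in 2 matrices of genes by barcodes. Cell Ranger 6.0.0 wrote them, per the file headers, whereas Cell Ranger 7, Seurat 4 and the build mm10 are listed in the submitters' processing notes. How the authors filtered barcodes is not stated in the labels. Gene positions are from GENCODE vM21 (GRCm38), matched by gene identifier, and promoter windows from RefSeq.

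Kept cells had 500 or more genes, 1000 or more UMIs and no more than 10% of UMIs from mitochondrial genes. A marker counted as raised when its share of a cell's UMIs exceeded its share in the library's kept cells. A class needed 3 raised markers, a lead of 0.2 in the share of its markers raised over the next class and, for epithelial classes, 2 raised general epithelial markers. This gate was set after the depth of the cells had been seen. No doublet caller was run, and cells with RNA of a second class, doublets among them, can pass this gate. Of 37 Leiden clusters (scanpy 1.11.5, igraph 0.11.9), 31 were named, each by the gate class that most of its gated cells had. Among the 2296 and 4772 gated cells in a named cluster, 94.1% and 91.5% had the class of their cluster. As the gate itself named the clusters, these shares are not an independent check of it.

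Counts were summed per library and class for the 8 classes with at least 20 cells in both libraries (16 sums) and compared by the robust quasi-likelihood test of edgeR 4.0.16 in R 4.3.3 with TMM scaling and filterByExpr. Library was a block: all classes come from each library, so sums of one library are paired. There were 12016 genes and 7 residual degrees of freedom. The SE was taken as the size of the log2 fold over the square root of F. Values for a library alone use a prior count of 2. The p-values measure how class differences vary between these libraries, which may be technical. The scripts were tested on simulated data.

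Every gene may be named with its levels. Test values are given, per comparison, for up to 10 called genes in each direction with over 3 counts in each group, and always for Sema3a, Nrp1, Plxnd1, Sema4d, Plxnb2, Efnb1, Efnb2, Ephb4 and Ephb6. Other values beside a test were chosen after they had been seen. The genes, the gene lists and the tests were chosen with earlier results of these data known. Alternatives were DESeq2 1.42.0, other filters, gates and cell sets, thinning and each library left out.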

Additional observations from a re-analysis of the deposited data

How the results depend on the processing

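Over 11 alternative settings with a test, the number of guidance genes called ran from 8 to 27 for epithelium against fibroblast-like cells (21 as reported), from 0 to 10 for cTEC-like against mTEC-like cells (9), from 8 to 23 for endothelial-like cells (18) and from 5 to 24 for thymocyte-like cells (21). Thinning each cell to 1000 UMIs gave 8, 0, 8 and 5 by edgeR, where the 0 goes with 2 genes at an unadjusted p under 0.05 (DESeq2 was not run on thinned cells). Leaving out stromal cells with any thymocyte marker UMI gave 9, 6, 9 and 8. It kept 723 and 2026 cells of 2207 and 4685, and these include all 143 and 1824 thymocyte-like cells. Most cells kept in library 2 were thus thymocyte-like, and few stromal cells were left there. Without the replicate block the counts were 21, 9, 20 and 21. Of the called values of named genes, 2 reversed: Plxna2 between cTEC-like and mTEC-like cells under thinning (-0.1411) and Sema3a in thymocyte-like cells without stromal cells bearing a thymocyte marker (0.9382). The cause was not tested, beyond the lower counts of both settings. DESeq2's Wald test gave 21, 9, 18 and 23. Leaving out 1 library at a time, a value with no test, reversed none of the called values of named genes. With those not called included, 48 values moved beyond the spread between libraries and 102 did not. Dropping the low-count filter moved the median of all genes by -0.37 between cTEC-like and mTEC-like cells and by -0.42 in endothelial-like cells, and DESeq2's size factors moved it by -0.18 in thymocyte-like cells. Values that were not called also changed sign, among them Ephb6 in epithelium against fibroblast-like cells (-0.34 to 1.84) and Nrp1 (-2.02 to 0.82) and Efnb2 (-0.03 to 1.32) in cTEC-like against mTEC-like cells, and Plxnb2 in endothelial-like cells (-0.27 to 0.49). The number of UMIs limits what could be seen; the smallest sums were those of library 2 in mural-like (195145 UMIs) and endothelial-like cells (281621 UMIs).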

Other observations

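The mesothelial-like class, cells of the lining that covers internal organs, held 91 cells in library 1 and 11 in library 2 and so was left out of the fit. Their levels are given without a test. The sum of library 2 held only 105661 UMIs, so low levels in it, such as those of Epha3, Lum and Pdgfra, rest on very few UMIs. Sema3c had 223 and 265 CPM in them, beside 274 and 194 CPM in fibroblast-like cells, and Sema3d had 132 and 75.7 CPM, above the 60.8 and 37.8 CPM of fibroblast-like cells. Sema5a had 206 and 246 CPM. Plxna4 had 140 and 142 CPM, above every sum of the 8 other classes, of which the highest was 81.6 CPM in tuft-like cells. Efna5, a ligand of EphA receptors, had 79.9 and 75.7 CPM, also above every other sum. Nrp1 had 10.2 and 37.9 CPM and Epha3 had 0.727 and 9.46 CPM, below the 281 and 257 CPM and the 104 and 126 CPM of fibroblast-like cells. The 10 fibroblast markers summed to 15388 and 11121 CPM in mesothelial-like cells. Of these, Dcn gave 9086 and 6871 CPM, whereas Lum (3.63 and 9.46 CPM), Pdgfra (5.81 and 9.46 CPM) and Dpt (10.9 and 0 CPM) were low. The rest of each sum came from the other markers of that list, so Dcn was not the only fibroblast marker present.

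Several of the 18 genes that were higher without overlap in mTEC-like cells with Ccl21a raised were low in counts. Efna4 had 22 and 33 CPM against 2.73 and 4.76 CPM in cells with Aire raised, Epha1 15 and 11.5 CPM against 1.37 and 2.72 CPM, and Epha7 13 and 11.5 CPM against 1.02 and 2.72 CPM. Among the 13 that were higher with Aire raised, Epha5 had 9.9 and 15.7 CPM against 1 and 0 CPM, and Sema7a 9.56 and 8.17 CPM against 1 and 0 CPM.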
